A study of Oryza sativa with 6 samples.

Results

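The rice genes named as members of the beta-glucosidase family BGLU were examined in young rice leaves of the indica variety Minghui63, with and without RNA interference (RNAi) against OsSRT1. Members were the genes whose symbol or synonym in the reference gene table is BGLU followed by a number. There were 31 such genes among those of the table, of which 27 had a probe set on the Affymetrix rice array and 4 (Os1bglu2, Os1bglu4, Os5bglu21 and Os6bglu24) had none listed. In all, 17905 annotated genes had a probe set. The name BGLU1 is carried by 2 members, so each gene is called here by its longer synonym, in which the first number is the chromosome (Os4bglu12 lies on chromosome 4). A gene with several probe sets is reported by the one with the highest mean signal over the 6 arrays.

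The control group consisted of 3 arrays from untransformed Minghui63 plants. The RNAi group consisted of 3 arrays from Minghui63 plants transformed with an RNAi construct, an inverted repeat built from 412 bp of OsSRT1 sequence downstream of its coding region. OsSRT1 encodes a sirtuin, a deacetylase that consumes NAD. The titles give the RNAi samples as transgenic lines LM1, LM2 and LM3. Total RNA came from young leaves of plants 11 days old, taken before the RNAi plants showed lesions. For a control sample the labels give growth on diluted MS medium at 25 °C with 16 h of light and 8 h of dark. The labels do not name the promoter that drove the construct, and they do not say whether each numbered RNAi sample is an independent line. The series' design text calls the samples biological repeats, and the p-values below measure only the spread between them.

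Beta-glucosidases of glycoside hydrolase family 1 cut the bond between glucose and a partner molecule in beta-linked glucosides. In plants the released partners include hormones held in store as inactive glucose conjugates, monolignols on their way to lignin, defence compounds, and short sugars from the cell wall. Some members move the glucose to another acceptor in place of releasing it. In rice the genes form a large family, in which many members lie next to each other in tandem.

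The arrays were scaled to a common trimmed mean before comparison, because as deposited control replicate 3 had a trimmed mean of 500.1 and the other 5 arrays had values from 99.9 to 118. No probe set was named OsSRT1, so the knockdown itself was not checked here. The 2 groups were hybridised and washed in separate runs, so the run and the RNAi cannot be told apart for any difference below. Of 7 marker genes of young leaves, 6 were tested, 5 had a lower mean with RNAi and 0 passed, and RBCS1 was too dim to be tested. The summed signal of the leaf markers was 127190.0 to 150332 in the controls and 120935 to 138405 with RNAi. Among markers of other tissues, both anther genes, 7 of 10 seed genes, 2 of 5 root genes and 2 of 6 genes of dividing cells had signals too low to be tested. The tested ones, 3 of root, 3 of seed and 4 of dividing cells, all had a lower mean log2 signal with RNAi and 0 passed, with 1 (Lsi1) at an unadjusted limma p under 0.05. Their brightest was GLB1 of the seed list, at 4856 ± 88.5 (SD, n = 3) in the controls and 4812 ± 1945 with RNAi. Next was the root gene Lsi1, at 1656 ± 121 and 1147 ± 281. Markers were matched by name, and whether this GLB1 is a seed gene was not checked. The seed sums that follow include it. Summed signals in the controls and with RNAi were 2685 to 3173 and 2143 to 2407 for root, 6289 to 6523 and 4228 to 7468 for seed, 798 to 825 and 538 to 822 for dividing cells, and 23.1 to 114 and 20.3 to 70.5 for anther. Whether a change in the make-up of the leaf contributed to any result was not tested, and in such bulk samples fewer cells of a type and less RNA per cell cannot be told apart.

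Most of the family, like most annotated genes, had a signal high enough to be tested. Signals are in arbitrary units after scaling, and they depend on the probes as well as on the transcript, so those of different genes give no order of transcript levels. Of the 27 genes, 24 lay in the upper 50% of all probe sets by mean signal and were tested. So did 14993 of all 17905 annotated genes, each by its probe set of highest mean signal. Control means of the 24 ran from 52.5 (Os5bglu19) to 6449 (Os4bglu12). They exceeded 1000 in 10 genes, lay between 100 and 1000 in 12 and were lower in 2. Against all 57194 probe sets, 5 of the 24 were among the top 10% in the controls, namely Os4bglu12, Os5bglu22, Os9bglu31, Os3bglu7 and Os1bglu5. The share of all annotated genes in that top 10% was not counted. The remaining 3 genes, Os1bglu1, Os9bglu33 and Os12bglu38, had control signals between 1.18 and 36.8 in single arrays and RNAi signals between 4.14 and 65.4, and were not tested. In each of these 3 genes the groups overlapped.

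**Figure D1:**
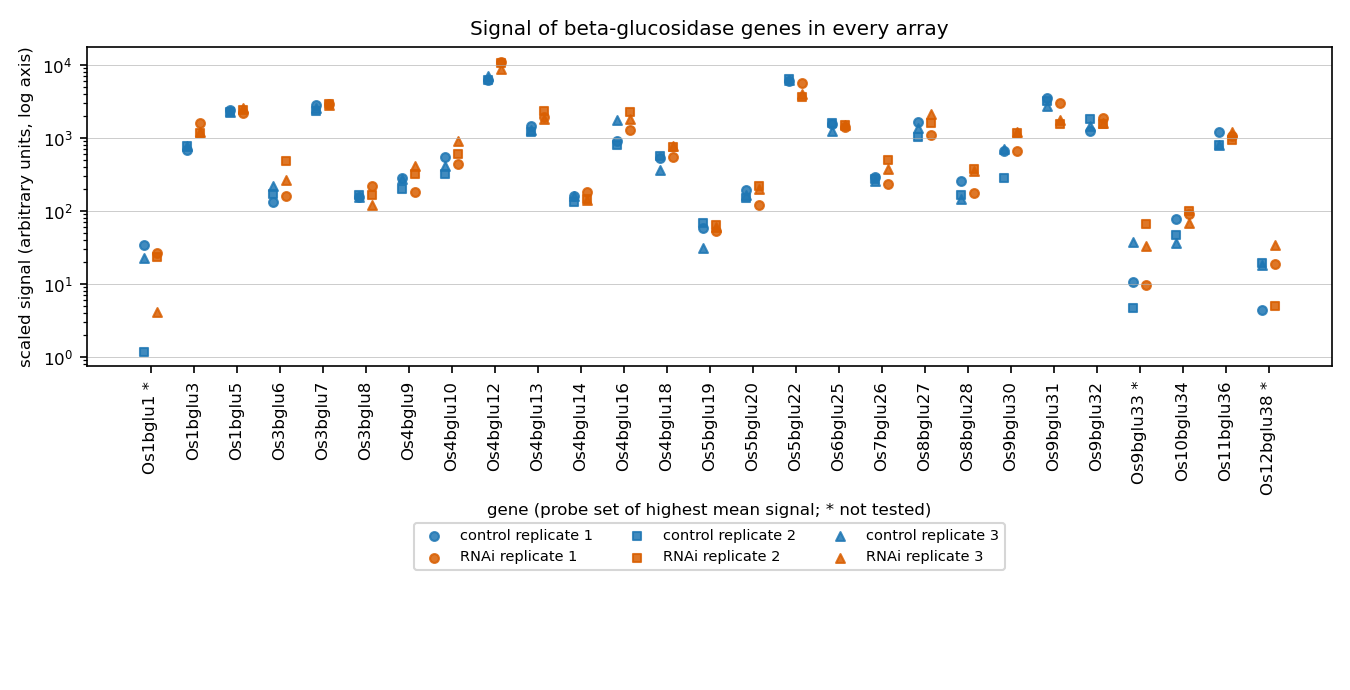
Scaled signal (arbitrary units, log axis) of the 27 beta-glucosidase genes with a probe set, with 1 point per array, control arrays in blue and RNAi arrays in orange. The 3 RNAi points of Os4bglu12, Os1bglu3 and Os4bglu13 lie above all 3 control points, those of Os5bglu22 lie below, and in the other 23 genes the groups overlap.

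Between RNAi and control leaves, Os4bglu12, whose enzyme releases the jasmonate derivative tuberonic acid and salicylic acid from their glucosides, rose 1.56-fold, and Os1bglu3 rose 1.74-fold. These were the 2 of 24 tested genes past an adjusted p of 0.05 (limma with Benjamini-Hochberg adjustment over all 28597 tested probe sets), and 0 fell past it. Among all tested annotated genes with 1 probe set each, 2.33% passed that threshold, 0.994% upward and 1.34% downward. With no adjustment, 8 of the 24 had a limma p under 0.05, 6 higher and 2 lower, where 17.8% of all tested annotated genes did. Among the genes that did not pass, the log2 fold change farthest above 0 was 0.91 (Os9bglu30) and the one farthest below 0 was -0.63 (the transglucosidase gene Os9bglu31). Both calls were close to the threshold. On these probe sets 0 of the family passed with SAM, the test named in the series' design text, with no filter on low signal (smallest limma adjusted p = 0.0615) or without the trend in the variance model (0.112). The second probe sets of both genes still passed with no filter (limma adjusted p = 0.0316 for Os4bglu12 and 0.0422 for Os1bglu3). With 1 array left out, they passed in 2 of 6 fits for Os4bglu12 and in 1 of 6 for Os1bglu3. Their results with SAM and without the trend are not given here.

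**Figure D2:**
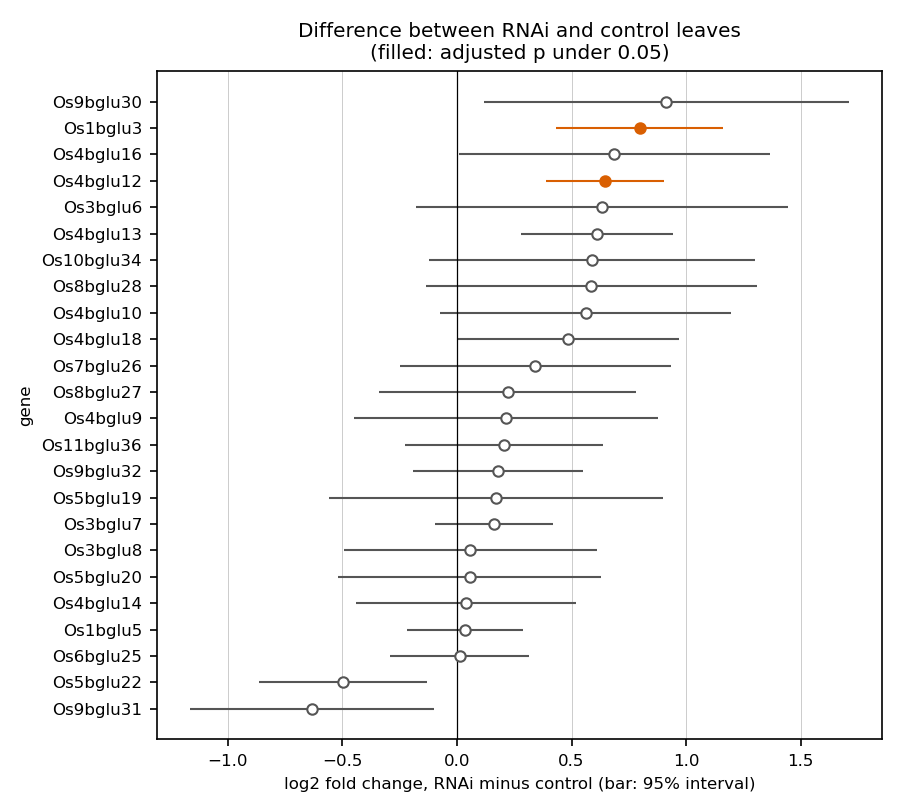
Log2 fold change (RNAi minus control, horizontal axis) of the 24 tested beta-glucosidase genes, with the 95% interval from limma as a bar and filled points for an adjusted p under 0.05. The filled points are Os1bglu3 at 0.80 and Os4bglu12 at 0.65, and 22 of the 24 points lie to the right of 0.

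Among the genes whose enzymes act on hormone glucosides, Os4bglu12 showed the clearest difference. Its signal was 6101, 6210.2 and 7036 in control replicates 1 to 3 and 11066, 10433 and 8866 in RNAi replicates 1 to 3. Every RNAi array lay above every control array. The means were 6449 ± 511 (SD, n = 3) and 10122 ± 1133, a log2 fold change of 0.65 ± 0.11 (SE, limma adjusted p = 0.0233). A second probe set of the gene read 225, 174 and 213 in the controls and 405, 476 and 475 with RNAi. Its log2 fold change was 1.09 ± 0.18 (limma adjusted p = 0.0178), again with no overlap between groups, so both probe sets rose. The call on the first probe set held in 3 of the 6 fits that left out 1 array and that on the second in 2 of 6. On the first, the limma adjusted p was 0.0834 without control replicate 1, 0.130 without control replicate 2 and 0.0918 without RNAi replicate 2.

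Os4bglu13 lies 1 gene away from Os4bglu12 on chromosome 4, and its enzyme is known to release a gibberellin from its glucosyl ester and to cut tuberonic acid glucoside. Its signal was 1470.0, 1182 and 1281 in the controls and 1922, 2329 and 1795 with RNAi. The groups did not overlap. The log2 fold change of 0.61 ± 0.15 nevertheless missed the threshold (limma adjusted p = 0.0781), and the 95% interval ran from 0.28 to 0.94. A second, dimmer probe set of the gene read 73.3 to 93.2 in the controls and 74.5 to 103 with RNAi and had a log2 fold change of 0.05, so the 2 probe sets of Os4bglu13 disagreed in size.

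Os3bglu6, whose enzyme can release abscisic acid from its glucose ester, had signals of 133, 168 and 215 in the controls and 159, 474 and 260.2 with RNAi. RNAi replicate 1 lay within the control range and the other 2 RNAi arrays above it. The log2 fold change was 0.63 ± 0.36 and did not pass (limma adjusted p = 0.442). Os9bglu31 encodes a transglucosidase of the vacuole that moves glucose between phenolic acids and hormones. It read 3528, 3208 and 2719 in the controls and 3022, 1532 and 1764 with RNAi. Again RNAi replicate 1 lay within the control range, and the other 2 lay below it. The log2 fold change was -0.63 ± 0.23 (limma adjusted p = 0.237), and without RNAi replicate 1 it was -0.92 with an adjusted p of 0.0133.

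The 3 members known for cutting monolignol glucosides, the stored forms of lignin precursors, are Os4bglu14, Os4bglu16 and Os4bglu18, which lie close together on chromosome 4. None of them passed. Os4bglu16 read 891, 801 and 1727 in the controls and 1287, 2258 and 1799 with RNAi, with a log2 fold change of 0.69 ± 0.30 (limma adjusted p = 0.314). The high value of control replicate 3 overlapped the RNAi range. On its second probe set control replicate 3 was also the highest control, at 724 against 416 and 366, but the RNAi values of 763, 966 and 831 all lay above it (log2 fold change 0.80 ± 0.25, limma adjusted p = 0.157). The probe set with the higher signal has a name ending in x_at, which marks probes shared with other transcripts. Os4bglu18 had 534, 562 and 366 in the controls and 541, 736 and 776 with RNAi, and its log2 fold change was 0.48 ± 0.21 (limma adjusted p = 0.32). Os4bglu14 had signals between 133 and 159 in the controls and between 140.2 and 181 with RNAi. Its log2 fold change was 0.04, with a 95% interval from -0.44 to 0.52.

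The genes known from cell wall sugars and from membranes gave no call. Os3bglu7, whose enzyme cuts short glucose chains derived from the cell wall, read 2795, 2318 and 2592 in the controls and 2885, 2922 and 2790.5 with RNAi. Its log2 fold change was 0.16, with a 95% interval from -0.10 to 0.42, one of the narrowest in the family. Os7bglu26, whose enzyme also cuts mannosides, had 292, 275 and 254 in the controls and 231, 497 and 373 with RNAi, so RNAi replicate 1 was the lowest of all 6 and RNAi replicates 2 and 3 were the highest. Its log2 fold change was 0.34 ± 0.26 (limma adjusted p = 0.573). Os11bglu36 is also named OsSFR2. In Arabidopsis, SFR2 rebuilds galactolipids of the chloroplast envelope and is needed to survive freezing. Os11bglu36 read 1210.0, 798 and 796 in the controls and 1067, 940.1 and 1184 with RNAi, with overlapping groups and a log2 fold change of 0.21 (95% interval -0.23 to 0.64). Its other 2 probe sets had -0.28 and 0.04, so the direction depended on the probe set.

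For the other members no role is given here. Os1bglu3 had signals of 679.7, 775 and 762 in the controls and 1584, 1148 and 1189 with RNAi. The groups did not overlap, and the lowest RNAi value was well above the highest control. The means of 739 ± 51.6 and 1307 ± 241 (SD, n = 3) gave a log2 fold change of 0.80 ± 0.16 (limma adjusted p = 0.0426). A second probe set read 356 to 397 in the controls and 607 to 753 with RNAi, a log2 fold change of 0.84 ± 0.15 (limma adjusted p = 0.0285), and its name marks probes shared with other transcripts. Another, near the floor, had 0.25 ± 0.47 (limma adjusted p = 0.837). Its direct neighbour Os1bglu2 has no probe set listed, and whether these probes also read the Os1bglu2 transcript was not tested. With quantile normalization Os1bglu3 missed the threshold (0.75, limma adjusted p = 0.0593), and of the 6 fits that left out 1 array it passed in 1, the one without RNAi replicate 1.

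Os5bglu22 was, beside Os9bglu31, the other tested member with a lower mean with RNAi. It read 5967, 6326 and 6099 in the controls and 5690.0, 3634 and 3949 with RNAi. The RNAi values all lay below the controls, RNAi replicate 1 only just. The log2 fold change was -0.50 ± 0.16 (limma adjusted p = 0.181), and without RNAi replicate 1 it was -0.69 with an adjusted p of 0.00868. Os9bglu30 read 656, 284 and 708 in the controls and 668, 1159 and 1196 with RNAi. Control replicate 2 was low and RNAi replicate 1 lay among the controls, and the log2 fold change of 0.91 ± 0.35 did not pass (limma adjusted p = 0.255). The name of this probe set marks it as reading several transcripts. A second probe set of the gene, without that mark, gave 0.94 ± 0.39.

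Os8bglu28 had 253, 165 and 146 in the controls and 172, 377 and 347 with RNAi, and Os4bglu10 had 537, 316 and 411 and then 432, 603 and 890.4. On these probe sets of both genes, RNAi replicate 1 lay within the control range and the other 2 RNAi arrays above it. Their log2 fold changes of 0.59 and 0.56 did not pass (limma adjusted p = 0.422 and 0.382). The other 2 probe sets of Os4bglu10 had 0.23 and 0.19. On the one with 0.23 the controls read 290.1 to 302, and RNAi replicate 1 was the highest array (406 against 313 and 334), with no overlap. The size and the place of RNAi replicate 1 thus depended on the probe set. Os10bglu34, a dim gene, read 77.2, 46.5 and 36.6 in the controls and 91.1, 99.1 and 68.2 with RNAi (0.59, limma adjusted p = 0.413). The other 8 tested members, Os1bglu5, Os3bglu8, Os4bglu9, Os5bglu19, Os5bglu20, Os6bglu25, Os8bglu27 and Os9bglu32, had log2 fold changes between 0.01 (Os6bglu25) and 0.22 (Os8bglu27). Among these, the 95% interval was -0.22 to 0.29 for Os1bglu5, -0.29 to 0.31 for Os6bglu25 and -0.45 to 0.88 for Os4bglu9. The data for the first 2 thus bound any difference far below that for Os4bglu9.

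RNAi replicate 1 was often the RNAi array that stood apart in the family. In 17 of the 24 tested genes it was the RNAi array farthest from the other 2, as it was at 46.4% of all tested probe sets. RNAi replicate 2 was the farthest in 3 genes and RNAi replicate 3 in 4, while each control array was the farthest of its group in 8 genes. Set against the control mean, the median log2 difference of the family was 0.12 in RNAi replicate 1, 0.35 in RNAi replicate 2 and 0.40 in RNAi replicate 3, where all tested annotated genes had medians of 0.00, 0.03 and 0.03. The number of family genes above all 3 control arrays was 8, 15 and 14 in the same order, against 33.1%, 33.7% and 34.9% of all tested annotated genes. Os1bglu3 and Os4bglu12 had their highest value in RNAi replicate 1. Among the genes listed as markers of other tissues, RNAi replicate 1 had the lowest signal of the 6 arrays for GLB1 (2568 against 6006 and 5863 in the other RNAi arrays). It was also lowest for Lsi1 (842 against 1203 and 1396). The same held for RAG2 and OsPCNA. But RNAi replicate 1 was the highest RNAi array for GLUA-2 (1429 against 1244 and 1280) and NAAT1 (1216 against 1156 and 905). For the other tested ones it was not the lowest RNAi array. Of the leaf markers, CAB2R (18862 against 29290 and 33008), GLO1 and PORB were lowest there, while FBP1 and rca were highest there among RNAi arrays. The part of these differences in the family's values was not tested.

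**Figure D3:**
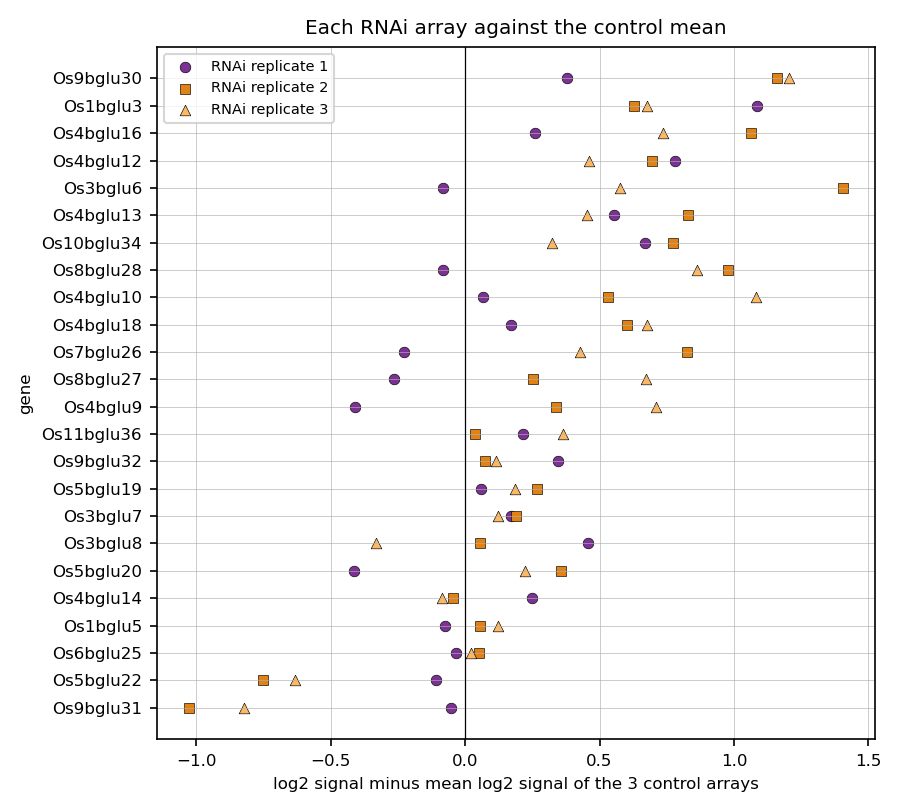
Log2 signal of each RNAi array minus the mean log2 signal of the 3 control arrays (horizontal axis) for the 24 tested beta-glucosidase genes, in the order of their mean difference. RNAi replicate 1 (circles) lies apart from the other 2 RNAi arrays in many genes, near 0 for Os9bglu31 (-0.05), Os8bglu28 (-0.08) and Os3bglu6 (-0.08), and is the highest for Os1bglu3 (1.09).

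Without RNAi replicate 1 the count of family genes past the threshold was 4, with Os4bglu12 and Os1bglu3 higher and Os5bglu22 and Os9bglu31 lower. The same fit called 902 probe sets in all, against 601 with all arrays. The family count was 0 with control replicate 1, with control replicate 2 or with RNAi replicate 2 left out. It was 1 (Os4bglu12) with control replicate 3 or RNAi replicate 3 left out. In these fits the calls over all tested probe sets fell too. They numbered 355 without control replicate 1, 233 without control replicate 2 and 358 without RNAi replicate 2. Without control replicate 3 they numbered 334, and without RNAi replicate 3 they numbered 369. The spread within a group was somewhat larger in RNAi than in control arrays, with a median SD of 0.31 against 0.22 on the log2 scale over the 24 genes and 0.24 against 0.20 over all tested probe sets.

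**Figure D4:**
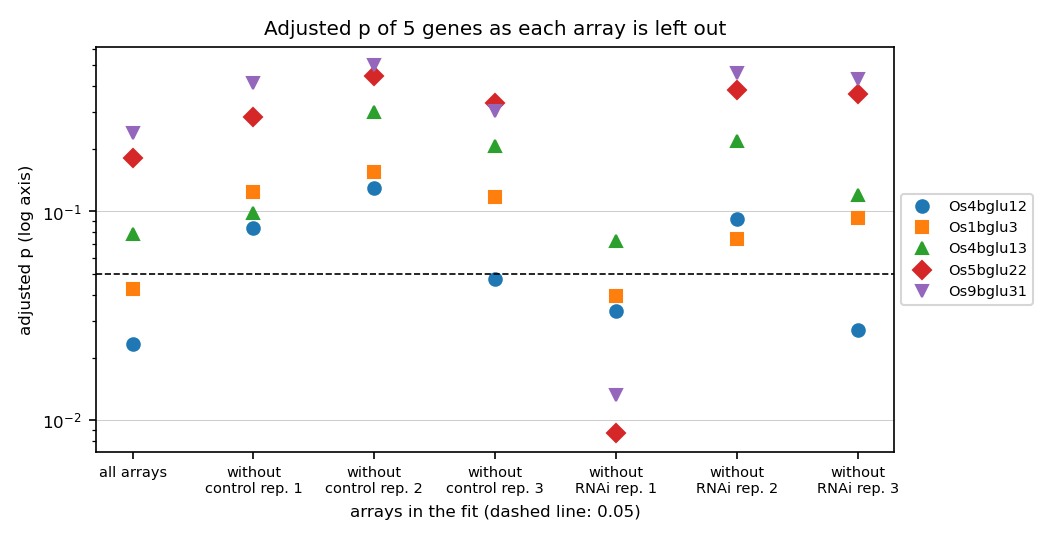
Adjusted p (log axis, limma) of Os4bglu12, Os1bglu3, Os4bglu13, Os5bglu22 and Os9bglu31 with all arrays and with each array left out in turn, and a dashed line at 0.05. Os5bglu22 and Os9bglu31 lie below the line only where RNAi replicate 1 is left out, and Os4bglu13 does not reach it.

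Taken by direction, 22 of the 24 tested members had a higher mean with RNAi, where 52.5% of all tested annotated genes did. The median log2 fold change of the 24 was 0.22, and that of all tested annotated genes was 0.02. Counting also the 3 dim genes, which were not tested, 25 of 27 were higher by mean log2 signal, where 52.0% of all annotated genes were. Of the 3, Os1bglu1 was higher by only 0.0084, and its mean signal was lower with RNAi (17.9 against 19.1). The count of 22 of 24 moved with the scaling, to 18 of 24 with quantile normalization. As deposited, with control replicate 3 on its own scale, 5 of 24 were higher and the median of all probe sets was -0.52, above which 20 of the 24 lay. The groups did not overlap in 4 of the 24 genes, 3 higher and 1 lower, while 25.2% of all tested annotated genes had groups that did not overlap, 13.2% higher and 12.0% lower.

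Of the 31 members, 20 lie in 7 tandem runs, defined here as neighbours with at most 3 other genes between them in the gene table. In the run of Os4bglu9, Os4bglu10, Os4bglu12 and Os4bglu13 all 4 log2 fold changes were above 0, from 0.21 to 0.65, and 1 passed. In the run of Os4bglu14, Os4bglu16 and Os4bglu18 they ran from 0.04 to 0.69. Neighbours also lay on opposite sides of 0. Os9bglu31 had -0.63 beside 0.18 for Os9bglu32, and in the run on chromosome 5 Os5bglu22 had -0.50 while Os5bglu19 and Os5bglu20 had 0.17 and 0.05. Differences between neighbours were not tested. Neighbouring copies can be alike in sequence and share probes, and how far these probe sets read each other's transcripts was not tested.

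Of the 9 members with several probe sets, 6 had the same direction on all of them. The exceptions were Os1bglu5, with 0.03 and -0.01, Os11bglu36, and Os9bglu32. Os9bglu32 had 0.18 on the probe set of highest signal, whose name marks it as reading several transcripts, and -0.35 ± 0.29 on the other.

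Genes that share substrates or products with the family were read in the same fit, with 1 probe set each. The list of jasmonate synthesis and conjugation was matched by name, and whether each member acts in making jasmonate or tuberonic acid was not checked. In it, 2 of 15 tested genes fell and 0 rose, where 1.34% and 0.994% of all tested annotated genes did. The 2 were the oxophytodienoate reductase genes OPR1 (-1.75) and OPR10 (-2.01). In the same list 13 of the 15 had a lower mean with RNAi, 8 had an unadjusted limma p under 0.05, and 7 had groups that did not overlap, all lower, beside 17.8% and 25.2% of all tested annotated genes for the last 2 measures. The median log2 fold change was -0.61, against 0.02 over those genes.

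Among genes of monolignol and phenylpropanoid synthesis, 0 of 23 passed and 6 had an unadjusted limma p under 0.05, against the background of 17.8%, with a median of -0.15. For gibberellin synthesis and breakdown, 0 of 6 passed and 3 had an unadjusted limma p under 0.05. The 6 were synthesis genes, and the only breakdown gene matched to a probe set was too dim to be tested. All 6 had log2 fold changes above 0, with a median of 0.42, where 52.5% of all tested annotated genes were higher. For abscisic acid synthesis and breakdown, 0 of 3 passed and 1 had an unadjusted limma p under 0.05, with a median of -0.36. The 3 included genes of synthesis and of breakdown, so this median gives no direction for either kind alone.

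Among cellulases and other glucan hydrolases outside the family, 1 of 10 rose and 0 fell, with a median of 0.08. Past the same threshold, 0.994% of all tested annotated genes rose and 1.34% fell. The hydrolase gene that rose was the endoglucanase gene GLU2, which went from 1765 ± 239 to 3091 ± 401 (log2 fold change 0.80 ± 0.15, limma adjusted p = 0.0287). Among genes of sucrose cleavage, sucrose synthesis and sugar transport, 1 of 29 rose and 0 fell. By mean log2 signal, 14 of the 29 were higher and 15 lower with RNAi. The gene that passed was the sucrose synthase gene OsSUS1, with signals of 1249 ± 101 and 2171 ± 273 (0.79 ± 0.14, limma adjusted p = 0.0233). The 4 calls over these lists depended on single arrays. They became 1 with any 1 control array left out. Leaving out RNAi replicate 3 gave 2 calls, RNAi replicate 2 gave 3 and RNAi replicate 1 gave 6. Glucosyltransferases that make glucose conjugates of hormones could not be matched by name and were not analysed here.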

How the data were processed

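The authors deposited a linear intensity for each probe set and array, computed in GCOS 1.2, per the submitters' processing notes. Their summary method and scaling target are not known here. The fluidics and scanner records, which hold no expression values, gave the wash runs.

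Each of the 6 arrays was scaled to 500, by its mean without the outer 2% at each end, and log2 of the signal plus 16 was used, so fold changes of dim genes are understated. The test left out 123 control and 64 reporter probe sets of the 57381 on the array, and then the lower 50% by mean log2 signal, which left 28597. The comparison used limma 3.58.1 in R 4.3.3 (two-sided, trended eBayes, p-values adjusted by Benjamini-Hochberg) and was checked on simulated data. The number of arrays limits the precision.

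Gene names came from the platform annotation, joined by gene ID to RefSeq's table for the japonica assembly ASM3414082v1, in which all 17905 annotated genes were found. Its coordinates served only to find neighbouring genes. A related gene was matched by symbol or synonym, with patterns refined after the annotation was seen. Every member with a probe set is named, and of each related list at most the 2 called genes with the smallest adjusted p. The members and lists were chosen with earlier results of these data known. Alternatives were the scaling, pseudocount, filter, SAM with all 20 label permutations, untrended eBayes, the replicate number as block, the omission of each array in turn, and the choice of probe sets. Sequences were not used here.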

Additional observations from a re-analysis of the deposited data

How the results depend on the processing

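The family count of 2 stayed at 2 with 1 or 64 added to the signals, with the upper 75% of probe sets kept, without probe sets read by several transcripts and with 1 probe set per annotated gene. It was 0 as deposited, with no filter, with the replicate block, without the trend and with SAM, 1 with quantile normalization, 4 when every family probe set was counted, and 0 to 4 as each array was left out. Samples with equal replicate numbers shared a fluidics module and a place in the scan order of their group. The labels give no other pairing. Correlations of deviations for equal numbers were -0.05, 0.01 and 0.00, which cannot show whether the numbers pair the samples.

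The count of all called probe sets was 601, and 37 as deposited, 394 with no filter, 303 without the trend and 233 to 902 as each array was left out. With the block it was 424. Of the calls, 51.9% were higher, and 64.9% as deposited, 61.4% without the trend, 63.0% with SAM and 61.7% and 70.8% without control replicate 1 or 2. It was 49.1% with quantile normalization, 48.4% without probe sets read by several transcripts and 42.7% with 1 probe set per annotated gene, so that lower calls were then the more frequent. The 4 calls in related lists became 1 to 6 as each array was left out.

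As deposited, control replicate 3 is on a larger scale than the other arrays (trimmed mean 500.1 against 99.9 to 118), for a reason not known here. On that scale 5 of the 24 tested genes were higher with RNAi. Of all tested probe sets 5.93% were higher, with a median log2 fold change of -0.52, so the whole table lay lower. The direction turned for Os1bglu5 (-0.59), Os3bglu6 (-0.032), Os3bglu7 (-0.47), Os3bglu8 (-0.47), Os4bglu9 (-0.39), Os4bglu10 (-0.084), Os4bglu13 (-0.028), Os4bglu14 (-0.50), Os4bglu18 (-0.14), Os5bglu19 (-0.22), Os5bglu20 (-0.48), Os6bglu25 (-0.61), Os7bglu26 (-0.26), Os8bglu27 (-0.41), Os8bglu28 (-0.036), Os9bglu32 (-0.45) and Os11bglu36 (-0.42). With quantile normalization it turned for Os3bglu8 (-0.026), Os4bglu14 (-0.036), Os5bglu20 (-0.027) and Os6bglu25 (-0.014), and without probe sets read by several transcripts for Os9bglu32 (-0.35, another probe set). Leaving out 1 array turned 8 genes in some fits, with log2 fold changes of -0.0095 to 0.089 for Os1bglu5, -0.14 to 0.25 for Os3bglu8, -0.034 to 0.53 for Os4bglu9, -0.066 to 0.10 for Os4bglu14, -0.081 to 0.34 for Os5bglu19, -0.095 to 0.29 for Os5bglu20, -0.093 to 0.069 for Os6bglu25 and -0.0054 to 0.46 for Os8bglu27. Apart from the shift of the whole table as deposited, the causes of these turns were not tested.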
